A study of Homo sapiens with 2 samples.

Results

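SOX9 binding was followed at the promoters of the NDUF genes, the nuclear genes for subunits and assembly factors of respiratory complex I, in HT29 (HT-29) cells, which come from a human colorectal adenocarcinoma. The members were all protein-coding genes of the GENCODE annotation of hg19 whose symbol begins with NDUF, and 48 of 20136 protein-coding genes met this rule. Chromatin was collected from formaldehyde-fixed, overnight cultured cells without any treatment or genetic change, and the groups were a SOX9 ChIP library, precipitated with an anti-SOX9 antibody, and an input DNA library, with 1 library in each. Each library held 12320108 aligned tags after the input had been downsampled. With 1 library per group no value had a replicate error, so no test between groups was possible and the intervals given below cover counting error only. For each gene, the authors' SOX9 peaks with a summit within 1 kb of any transcription start site (TSS) of the gene were taken, and the SOX9 and input signal was read as the number of tags in the 32-nt bin that holds the canonical TSS. DNA libraries hold no expression values, so neither the cell line nor the activity of these genes could be checked against marker genes.

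Complex I, the NADH:ubiquinone oxidoreductase, takes electrons from NADH in the mitochondrial matrix, passes them to ubiquinone and pumps protons across the inner membrane, which feeds ATP synthesis. Its catalytic core is built partly from subunits encoded in mitochondrial DNA and partly from nuclear-encoded NDUFS and NDUFV proteins, which are surrounded by accessory subunits and put together in modules with the help of assembly factors. SOX9 is a transcription factor with an HMG box that is best known in cartilage and, in the intestine, in the proliferative crypt base and in Paneth cells. The study described 3 sequence motifs in the SOX9 peaks. Motif 1 is a CCAAT box with its flanks, the site of the trimeric factor NF-Y, Motif 2 is the classical SOX9 consensus and Motif 3 an inverted repeat of it.

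Most NDUF promoters carried a SOX9 peak. A summit lay within 1 kb of a TSS in 40 of the 48 genes (83.3%), against 44.9% of all protein-coding genes (9033 of 20136). These genes held 45 distinct promoter peaks, since NDUFC2 and the readthrough gene NDUFC2-KCTD14 share 1 peak, NDUFAF6 had 4 peaks, and NDUFA11, NDUFC1 and NDUFS3 had 2 each. Of these peaks, 11 lay nearer to a TSS of another protein-coding gene than to one of the NDUF gene. No such count was taken for other sets of genes. At the canonical TSS, the SOX9 signal was at least 4 times the input, with 1 tag added to both, in 29 of 48 genes (60.4%), against 27.4% of all protein-coding genes. Among start sites with at least 5 tags in the SOX9 and input bins together, it was 29 of 47 NDUF genes (61.7%), against 45.1% of all such genes. The median signal was 21 SOX9 tags and 3 input tags over the NDUF genes, and 5 SOX9 tags and 1 input tag over all protein-coding genes. The SOX9 signal was above the input at 44 of the 48 start sites and below it at 4, namely NDUFA4, NDUFA4L2, NDUFB4 and NDUFB8. These counts were not taken over all genes, so they describe the NDUF start sites only. In 36 genes the exact 95% interval of the ratio of SOX9 to input tags lay above 1, against 32.5% of all protein-coding genes. Both criteria were met by 28 genes, 12 had a summit but missed the 4-fold limit, and NDUFS5 passed the limit without a summit.

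**Figure D1:**
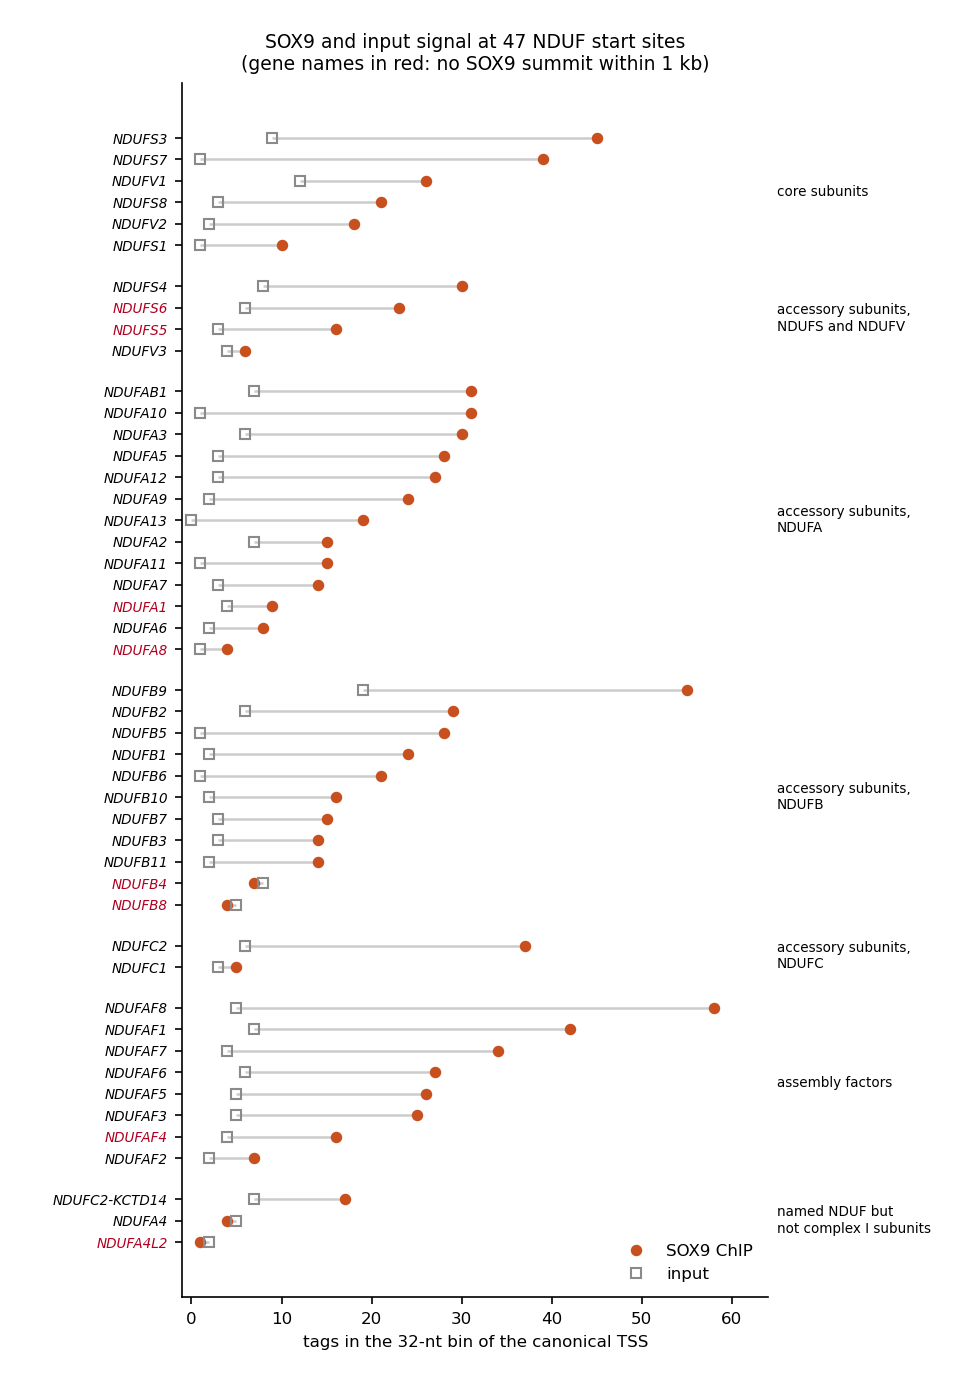
Tags in the 32-nt bin of the canonical TSS (horizontal axis) in the SOX9 ChIP library (filled circles) and the input library (open squares) for 47 of the 48 NDUF genes, grouped by role, with the names of the 8 genes that lacked a promoter summit in red. SOX9 lay left of the input for 4 genes, and the widest gap was that of NDUFAF8, with 58 SOX9 tags and 5 input tags.

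Peak heights, by contrast, were close to those of all genes with a promoter peak. The strongest promoter peak per gene had a median of 60 tags over the 40 NDUF genes (quartiles 47.8 and 77.2, range 31 to 244), against 59 tags over the 9033 protein-coding genes with a promoter peak (quartiles 41 and 86). Of the 40 genes, 9 lay in the upper quartile of all genes, 8 in the lower and 23 between. The median fold enrichment, as MACS computed it against the local input, was 11 for NDUF genes and 10.1 for all genes with a promoter peak. The scores (minus 10 times the log10 of the p-value from MACS) had a median of 182, and the empirical FDR was 0% for 37 of the 40 strongest peaks. The other 3 had scores near the smallest value of the peak list, 70.01, which was that of NDUFV3 itself, and were NDUFS4 with 70.91 and NDUFV2 with 78.09.

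**Figure D2:**
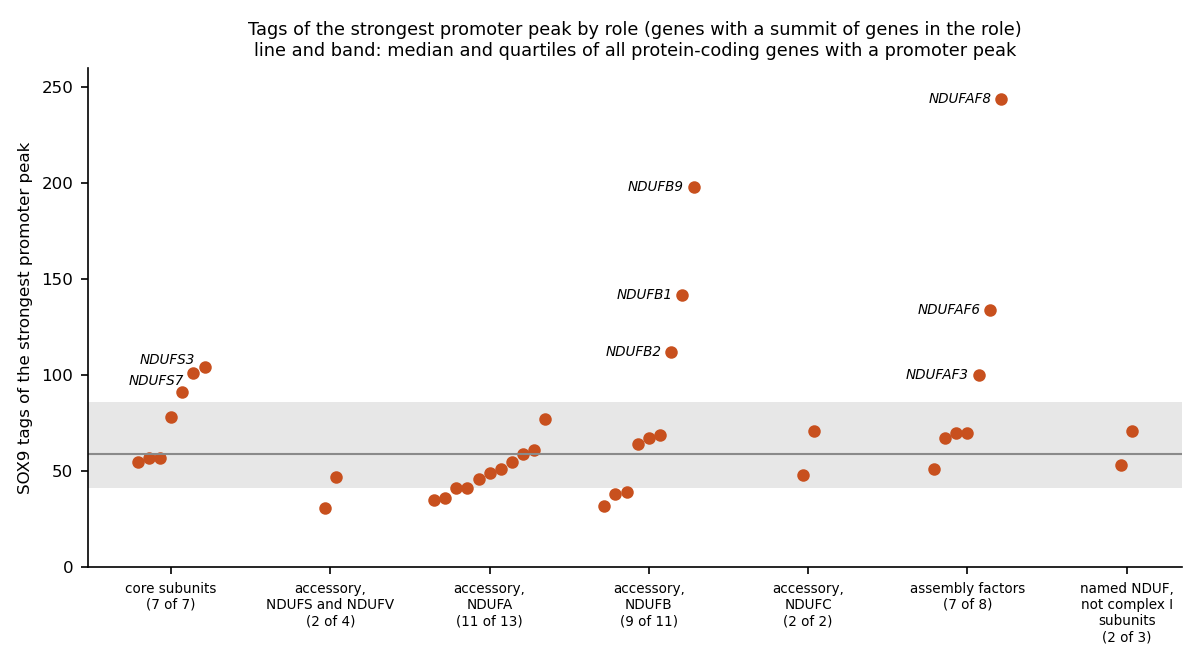
SOX9 tags of the strongest promoter peak (vertical axis) for the 40 NDUF genes that had one, by role, with the number of genes with a summit of all genes in the role below each group. The line and band mark the median of 59 tags and the quartiles of 41 and 86 tags of all 9033 protein-coding genes with a promoter peak, and NDUFAF8 (244 tags) and NDUFB9 (198 tags) stand highest.

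All 7 nuclear-encoded core subunits had a promoter summit, and 6 of them passed the 4-fold limit at the TSS. NDUFV1, which binds FMN and oxidises NADH, had 26 SOX9 tags and 12 input tags at its TSS, a ratio of 2.17 (exact 95% interval 1.06 to 4.71), and was the core gene that missed the limit. Its peak nevertheless held 78 tags and was enriched 10.44-fold, and the summit lay 25 bp upstream of the nearest TSS. NDUFV2, an iron-sulfur protein of the NADH-oxidising module, had 18 SOX9 tags and 2 input tags and a peak of 57 tags. NDUFS1, the largest subunit and a carrier of several iron-sulfur clusters, had 10 SOX9 tags and 1 input tag at the TSS, and the summit of its 57-tag peak lay 466 bp upstream of its nearest TSS.

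Other core genes encode the module that reduces ubiquinone. NDUFS3 had 45 SOX9 tags and 9 input tags, the highest SOX9 signal of the core genes, and a peak of 104 tags. NDUFS7, which holds the last iron-sulfur cluster before ubiquinone, had 39 SOX9 tags and 1 input tag, a ratio of 39.0 (exact 95% interval 6.60 to 1580), and a peak of 101 tags. The input count of 1 leaves the upper end of that interval almost open. NDUFS8, another iron-sulfur subunit, had 21 SOX9 tags and 3 input tags and a peak of 91 tags. All 7 strongest summits lay upstream of their nearest TSS, and the median over the core genes was 78 tags.

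NDUFS8 is shown because its summit window held 4 CCAAT boxes within 100 bp, a number reached by 1.44% of all 8655 promoter peaks of protein-coding genes. The stretch runs with the gene, on the plus strand at chr11:67797941-67798083 (hg19), holds no annotated exon and has 3 of the boxes in capitals (CCAAT, or ATTGG where the box lies on the other strand). The summit is base 101.
NDUFS8: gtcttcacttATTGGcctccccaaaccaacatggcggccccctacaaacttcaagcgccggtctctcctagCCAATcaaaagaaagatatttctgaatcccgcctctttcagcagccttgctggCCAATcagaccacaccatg

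The accessory subunits named NDUFS and NDUFV had the lowest share of genes with a summit among the groups of subunits of the complex, 2 of 4, and neither had more than 47 tags. NDUFS4, a subunit whose mutations cause Leigh syndrome, had 30 SOX9 tags and 8 input tags at the TSS, a ratio of 3.75 (exact 95% interval 1.68 to 9.47), and a peak of 47 tags. NDUFV3 had 6 SOX9 tags and 4 input tags, and its peak of 31 tags was the lowest of the 40 strongest peaks, at a fold enrichment of 4.76. NDUFS5 had 16 SOX9 tags and 3 input tags, a ratio of 5.33 (exact 95% interval 1.53 to 28.6), but no peak nearer than 35.1 kb. NDUFS6, which carries a zinc site, had 23 SOX9 tags and 6 input tags, a ratio of 3.83 (exact 95% interval 1.52 to 11.5). Its TSS lay inside a broad peak of 147 tags, chr5:1799606-1802143, whose summit was 1515 bp from the nearest NDUFS6 TSS and therefore outside the 1 kb limit.

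Of the 13 accessory subunits named NDUFA, including the mitochondrial acyl carrier protein NDUFAB1, 11 had a summit and 8 passed the 4-fold limit. Their strongest peaks ran from 35 tags at NDUFA11 to 77 at NDUFA3, with a median of 49. The highest SOX9 signals at the TSS were those of NDUFA10 and NDUFAB1, with 31 SOX9 tags each, against 1 input tag at NDUFA10 and 7 at NDUFAB1. NDUFA13, also known as GRIM-19, was the one NDUF gene whose TSS bin held no input tag, with 19 SOX9 tags, and the lower bound of its ratio was 4.67. NDUFA2, NDUFA6 and NDUFA7 had a summit but missed the limit, with 15, 8 and 14 SOX9 tags against 7, 2 and 3 input tags. NDUFA1 and NDUFA8 had no summit, with 9 SOX9 tags and 4 input tags at NDUFA1 and 4 SOX9 tags and 1 input tag at NDUFA8. Their nearest peaks lay at 14.3 kb and 36.6 kb and held 17 and 19 tags.

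The 11 NDUFB genes encode accessory subunits of the membrane arm. Of these, 9 had a summit, 7 passed the 4-fold limit, and the strongest peaks ran from 32 tags at NDUFB6 to 198 at NDUFB9. NDUFB9 had 55 SOX9 tags and 19 input tags at its TSS, a ratio of 2.89 (exact 95% interval 1.69 to 5.17), and its fold enrichment was 6.64 in spite of the tag count. The input within 500 kb of this gene was 3.49 times the level of the autosomes, against a median of 1.08 over the 48 genes, and its part in the tag count was not tested. NDUFB1 showed the opposite pattern, with 142 tags, the highest fold enrichment of the family (91.67) and a local input of 0.663 times the autosomes. The signal reached 82 SOX9 tags and 3 input tags within its peak, and 24 SOX9 tags and 2 input tags at its canonical TSS. NDUFB2 had 29 SOX9 tags and 6 input tags at the TSS and a peak of 112 tags whose summit lay 1 bp upstream of it. NDUFB4 had 7 SOX9 tags and 8 input tags, and NDUFB8 had 4 SOX9 tags and 5 input tags, and these were the NDUFB genes without a summit. The nearest peak was 127 kb from NDUFB4 and 5.96 kb from NDUFB8.

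Both NDUFC genes had a summit. NDUFC2 had 37 SOX9 tags and 6 input tags at the TSS, a ratio of 6.17 (exact 95% interval 2.58 to 17.9), and a peak of 71 tags. NDUFC1 had 5 SOX9 tags and 3 input tags at its canonical TSS, and both of its peaks, of 48 and 31 tags, lay at downstream start sites of other transcripts. It was the 1 gene that lost its summit when only canonical start sites were used.

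Among the 8 assembly factors named NDUFAF, 7 had a summit and 6 passed the 4-fold limit, and the median of their strongest peaks was 70 tags. NDUFAF8, which binds and stabilises NDUFAF5, had the most tags of the family (244), a fold enrichment of 73.63 and rank 164 of the 9033 genes with a promoter peak. Within the peak the signal reached 144 SOX9 tags and 5 input tags, and at the canonical TSS, 160 bp from the summit, 58 SOX9 tags and 5 input tags, a ratio of 11.6 (exact 95% interval 4.70 to 37.1). NDUFAF5, which hydroxylates an arginine of NDUFS7, had 26 SOX9 tags and 5 input tags and a peak of 67 tags. NDUFAF1, part of the mitochondrial complex that assembles an intermediate of the membrane arm, had 42 SOX9 tags and 7 input tags and a peak of 70 tags. NDUFAF7, a methyltransferase that acts on a core subunit, had 34 SOX9 tags and 4 input tags and a peak of 70 tags as well.

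NDUFAF3 and NDUFAF4 act together early in assembly but differed at this level. NDUFAF3 had 25 SOX9 tags and 5 input tags with a peak of 100 tags, whereas NDUFAF4 had 16 SOX9 tags and 4 input tags with no peak nearer than 26.9 kb. The intervals of their ratios overlapped widely, from 1.88 to 16.7 for NDUFAF3 and from 1.29 to 16.4 for NDUFAF4. NDUFAF2, a relative of NDUFA12, had 7 SOX9 tags and 2 input tags at the TSS and a peak of 51 tags whose summit was 120 bp from its nearest TSS. NDUFAF6 had the most peaks. The highest of these, with 134 tags, lay 825 bp from an internal start site, far inside the gene, while the peak at the canonical TSS had 77 tags with 27 SOX9 tags and 6 input tags in the TSS bin.

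NDUFAF8 is printed as the gene with the highest peak and with 6 CCAAT boxes within 100 bp of the summit. Of all 8655 promoter peaks, 6 (0.0693%) held as many. The stretch is on the plus strand at chr17:79212892-79213058 (hg19), upstream of the gene and free of annotated exons, with the summit at base 67 and 5 of the boxes in capitals. For NDUFB1, the gene with the highest fold enrichment, the single box is given in a window of 30 bases on the minus strand, chr14:92588173-92588202, 30 bp from the summit. Neither the NDUFAF8 boxes nor this one had the flanks of Motif 1 as it is taken below. The NDUFAF8 summit lay nearer to a TSS of TEPSIN (67 bp) than to one of NDUFAF8 (147 bp).
NDUFAF8: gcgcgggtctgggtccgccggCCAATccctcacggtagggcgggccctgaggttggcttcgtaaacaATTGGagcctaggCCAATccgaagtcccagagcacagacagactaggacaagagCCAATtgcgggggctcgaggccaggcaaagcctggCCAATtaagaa
NDUFB1: ttattcagaaattATTGGtaatgtttggaa

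Of the 3 genes that bear the name NDUF without being complex I subunits, none passed the 4-fold limit. NDUFA4, now assigned to cytochrome c oxidase, had 4 SOX9 tags and 5 input tags at the TSS and a peak of 53 tags whose summit lay 407 bp upstream. NDUFA4L2, a relative of NDUFA4 known as a target of hypoxia-inducible factor, had 1 SOX9 tag and 2 input tags, the lowest SOX9 signal of the family, and its nearest peak, of 34 tags, was 1413 bp away. NDUFC2-KCTD14 shares the NDUFC2 promoter and its peak of 71 tags, and had 17 SOX9 tags and 7 input tags at its own canonical TSS. Without these 3 genes, 38 of 45 had a summit and 29 of 45 passed the 4-fold limit, an alternative added after seeing the data.

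The 8 genes without a summit still held more SOX9 than input signal on average, although 3 of them were below their input. The highest of them at the TSS were NDUFS6 with 23 SOX9 tags and NDUFS5 and NDUFAF4 with 16 each. The NDUFS6 TSS lay inside a called peak, so the mean is not that of start sites free of peaks. The mean SOX9 signal over them reached 10.1 tags per bin, 48 bp upstream of the TSS, where the input had 4.38, whereas the 11103 protein-coding genes without a summit reached 2.73 with an input of 1.29. Over the 40 NDUF genes with a summit the mean SOX9 signal reached 27.6 tags at the same position, with 4.62 in the input, and over all 9033 genes with a summit it reached 20.6 tags at 80 bp upstream, with 3.26 in the input. The input itself was thus also higher at NDUF start sites than over all genes, with and without a summit. At 1500 to 2000 bp from the TSS the 8 genes were at 2.01 SOX9 tags and 1.06 input tags, and the 40 genes with a summit at 0.944 SOX9 tags and 0.927 input tags. This flank of the 8 genes holds the summit of the NDUFS6 peak, 1515 bp from its nearest TSS. The part of that peak in the flank was not tested.

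**Figure D3:**
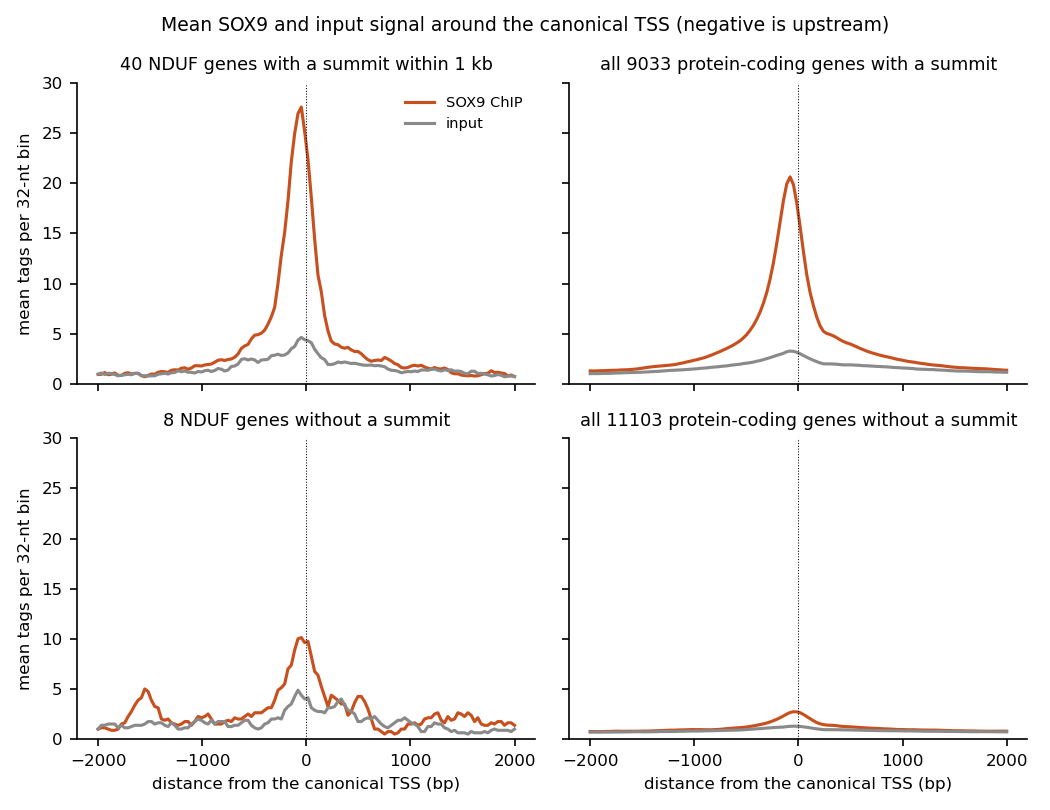
Mean tags per 32-nt bin (vertical axes) in the SOX9 ChIP and input libraries against the distance from the canonical TSS in bp (horizontal axes, negative is upstream), for NDUF genes (left) and all protein-coding genes (right) that had a promoter summit (top) or lacked one (bottom). The top left curve reaches 27.6 SOX9 tags, the top right 20.6, the bottom left 10.1 and the bottom right 2.73.

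The members nearest to the limits were few. The farthest summits that still counted were those of NDUFAF6 (825 bp), NDUFA11 (503 bp) and NDUFS1 (466 bp), and the nearest that did not were those of NDUFA4L2 (1413 bp) and NDUFS6 (1515 bp). With 1 tag added to both libraries, NDUFAF6, NDUFAB1 and NDUFB7 were exactly at 4 and counted, while NDUFA7 and NDUFB3 were at 3.75 and did not.

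Summits clustered just upstream of the start sites. Of the 40 strongest summits, 29 lay upstream of the nearest TSS of the gene (72.5%, against 73.8% of all genes with a promoter peak), and 30 lay within 100 bp of it. The median position was 22.5 bp upstream for NDUF genes and 49 bp upstream for all genes. In the annotation, 21 summits fell in an exon of the NDUF gene, 5 in an intron and 14 outside the gene. Of those 14, 2 fell in another protein-coding gene, ERCC8 for NDUFAF2 and EEF1B2 for NDUFS1. Among the summits inside the NDUF gene, those of NDUFA2, NDUFA7, NDUFA9, NDUFAF3 and NDUFB9 also fell in another protein-coding gene. The summit shared by NDUFC2 and NDUFC2-KCTD14 counts for both genes. Neither the count within 100 bp nor these locations were taken over all genes, so they describe the NDUF summits only.

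Many NDUF promoters are shared with a gene on the other strand, which limits what a summit can be assigned to. A protein-coding gene on the opposite strand started within 1 kb upstream of 20 of the 48 NDUF genes (41.7%), against 12.5% of all protein-coding genes. In such head-to-head arrangements a summit was present at 17 of 20 NDUF genes (85.0%), against 75.3% of all genes with such a neighbour. Without a protein-coding neighbour it was present at 23 of 28 NDUF genes (82.1%), against 40.5% of all such genes. These differences were not tested.

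In the 17 pairs with a summit, it lay between both start sites in 12, was nearer to a TSS of the NDUF gene in 10 and nearer to a TSS of the neighbour in 7. These positions were not counted over all head-to-head genes. The neighbours in the 7 pairs were ERCC8, a DNA repair gene 1 bp from the NDUFAF2 summit, KBTBD4 (8 bp, NDUFS3), ESF1 (31 bp, NDUFAF5), EEF1B2 (41 bp, NDUFS1), TEPSIN (67 bp, NDUFAF8), RBM10 (72 bp, NDUFB11) and HYCC2 (97 bp, NDUFB3). Peaks elsewhere on NDUFAF6 and NDUFS3 were also nearest to other genes, which are named here after their values were seen. Of the 4 NDUFAF6 peaks, that of 54 tags lay 77 bp from a TSS of CCNE2 and that of 46 tags 74 bp from one of TP53INP1, both at alternative start sites far from the canonical NDUFAF6 TSS. The second NDUFS3 peak, of 41 tags, lay 6 bp from a TSS of PTPMT1. The NDUFAF8 summit was 147 bp from the nearest NDUFAF8 TSS, and the NDUFS1 summit 466 bp from that of NDUFS1. Among the other neighbours were mitochondrial ribosomal protein genes, MRPL47 beside NDUFB5 and MRPL36 beside NDUFS6, and the cytosolic ribosomal protein gene RPS28 beside NDUFA7. Which gene of a pair a summit belongs to cannot be told apart at this resolution.

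**Figure D4:**
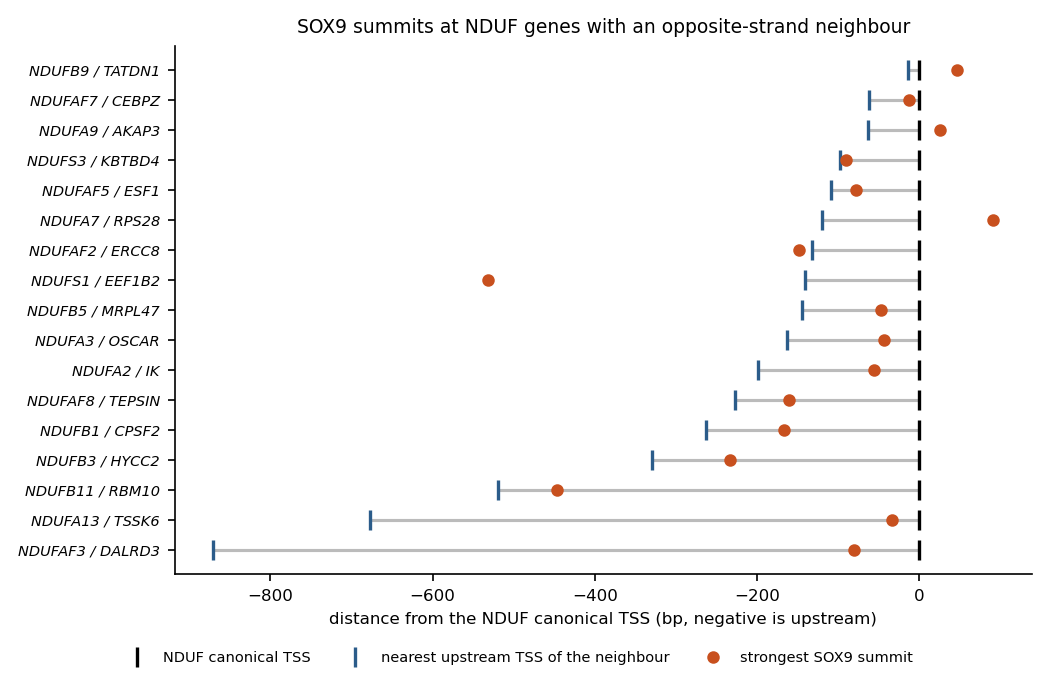
Position of the strongest SOX9 summit (circles) relative to the canonical TSS of the NDUF gene (black ticks at 0) and the nearest upstream TSS of its opposite-strand protein-coding neighbour (blue ticks), in bp, for the 17 head-to-head pairs with a summit, sorted by the distance between the start sites. In 12 of the 17 pairs the circle lies between the ticks, and the NDUFS1 summit lies farthest out, 531 bp upstream of the canonical TSS.

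CCAAT and the spellings used here for Motif 1 and Motif 2 stood near a smaller share of NDUF summits than of all promoter summits. These differences rest on few peaks and were not tested. CCAAT, on either strand and at most 100 bp from the summit, was present in 10 of the 45 NDUF promoter peaks (22.2%), against 30.7% of all 8655 promoter peaks of protein-coding genes. These were peaks of NDUFAF8, NDUFB1, NDUFS8, NDUFB5, NDUFB11, NDUFB3, NDUFA2, NDUFAF2, NDUFAF6 and NDUFA11, where the NDUFAF6 match was in the peak nearest to TP53INP1. The summits at NDUFAF8, NDUFB11, NDUFB3, NDUFAF2 and NDUFA11 also lay nearer to a TSS of another protein-coding gene. At NDUFA11 that TSS was 332 bp away, against 503 bp for the nearest TSS of NDUFA11. Motif 1, taken as CCAAT after 2 purines and before C or G and a purine, overlaps CCAAT by construction and was present in 4 (8.89%, against 14.8%), at NDUFS8, NDUFA2, NDUFB11 and NDUFAF2. Motif 2 was taken as CAAAG or CAATG after 2 bases that are A or T. It was in none of the 45, against 7.68% of all promoter peaks, and no match says only that these letters are not in the window. Over the whole peak interval it was in 12 of 45 NDUF peaks (26.7%), against 36.2% of all promoter peaks. Motif 3 was not searched. Peaks with CCAAT had a median of 65.5 tags (35 to 244) over 10 NDUF peaks, and those without had 55 tags (25 to 198) over 35 NDUF peaks. The ranges overlapped, and over all promoter peaks the medians were 64 tags with CCAAT and 52 without.

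Other motifs known from promoters of nuclear respiratory genes were set beside the same background. The ETS core CCGGAAG was present in 6 of 45 NDUF peaks (13.3%, against 16%), and the GC box GGGCGG in 22 (48.9%, against 61.3%). The core of nuclear respiratory factor 1, GCATGCGC, was present in 4 (8.89%, against 2.72%), at NDUFS7, NDUFAF5, NDUFA6 and NDUFAF6, where the NDUFAF6 match was in the peak nearest to CCNE2. The letters AAGATGG, the core of the YY1 site, were in 9 peaks (20%, against 5.55%). In the 300 bases from 250 bp upstream to 50 bp downstream of the canonical TSS the shares over the 48 genes were 25% for AAGATGG (6.45% of all protein-coding genes), 16.7% for GCATGCGC (4.26%), 20.8% for CCGGAAG (14.0%) and 25% for CCAAT (36.0%). Neither the CCAAT box nor the ETS, NRF1 and YY1 cores were found within 100 bp of the summit in 20 of the 45 NDUF peaks (44.4%), against 52.6% of all promoter peaks.

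The AAGATGG matches coincided with translation starts. In 8 of the 9 NDUF peaks the ATG of the match was an annotated start codon of the gene, against 178 of 511 matches (34.8%) in all promoter peaks. Matches elsewhere than at a start codon were in 2.22% of NDUF promoter peaks and 3.49% of all promoter peaks. Windows of 30 bases around 8 of the matches are given in the direction of the gene with the match in capitals. NDUFB5 was the exception, where the match was at no annotated start codon. All coordinates are hg19. NDUFS4 (chr5:52856479-52856508), NDUFS7 (chr19:1383912-1383941), NDUFA3 (chr19:54606173-54606202), NDUFA9 (chr12:4758279-4758308) and NDUFB5 (chr3:179322500-179322529) are on the plus strand, and NDUFA7 (chr19:8386228-8386257), NDUFA12 (chr12:95397442-95397471) and NDUFC1 (chr4:140216938-140216967) on the minus strand.
NDUFS4: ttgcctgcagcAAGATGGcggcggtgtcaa
NDUFS7: aggccgaggccAAGATGGcggtgctgtcag
NDUFA3: ccgcggagacaAAGATGGctgcgagtaagt
NDUFA7: tatcgcggacggAAGATGGcgtccgccacc
NDUFA9: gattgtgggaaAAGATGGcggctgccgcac
NDUFA12: ggccagcgaggcAAGATGGagttagtgcag
NDUFC1: gctgggccacgcAAGATGGcgccgtccgcc
NDUFB5: tgccctcacttAAGATGGccacatcctgcc

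The NRF1 core lay exactly under the summit in 1 gene, NDUFS7, which is printed for that reason with its 101-tag peak, on the plus strand at chr19:1383822-1383851. NDUFB7 is given beside it as an example of the ETS core, on the minus strand at chr19:14682885-14682914, where the match lay 33 bp from a summit of 38 tags.
NDUFS7: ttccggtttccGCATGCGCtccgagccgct
NDUFB7: tgcctaaatgacCCGGAAGctgtgtctgac

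Other nuclear genes of the mitochondrion were counted in the same way. Of 11 assembly factors of complex I that are not named NDUF, 10 had a summit, the strongest being those of COA1 and FOXRED1 with 114 tags each. All 8 genes of the complex II list, which holds subunits and assembly factors, had one. So did 9 of 10 genes of complex IV, 13 of 15 of complex V and 5 of 9 of complex III, whose lists hold subunits only. The complex III genes with a summit had the highest median of these lists, 170 tags, with 242 tags at UQCRH and 237 at UQCRC2. The longest list, the mitochondrial ribosomal proteins, was nearly level with the NDUF genes, with a summit at 66 of 78 genes (84.6%), 47 past the 4-fold limit (60.3%) and a median of 64.5 tags. The complex IV genes had a summit as often but passed the 4-fold limit in 2 of 10 genes. Peaks were not exclusive to a list. The NDUFB5 peak of 69 tags counted for MRPL47 too, and the 147-tag peak over the NDUFS6 TSS counted for MRPL36 but not for NDUFS6. These counts are a description, and differences between the lists were not tested.

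**Figure D5:**
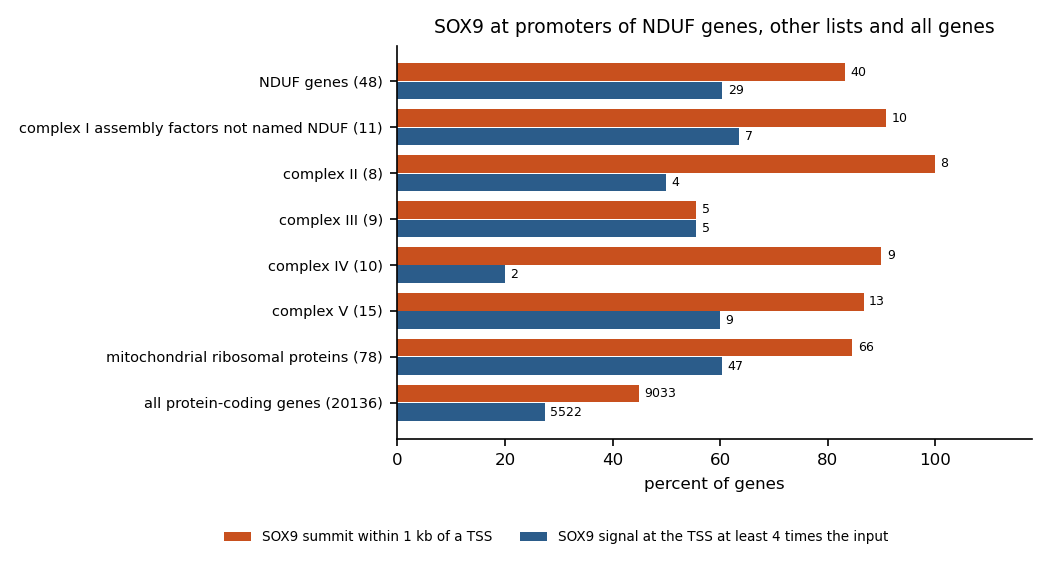
Percent of genes (horizontal axis) with a SOX9 summit at most 1 kb from any start site (upper bar of each pair) and with a SOX9 signal at the canonical TSS of at least 4 times the input (lower bar), for NDUF genes, 6 other lists of nuclear genes for mitochondrial proteins and all protein-coding genes, with list sizes in parentheses and the number of genes at each bar. NDUF genes stand at 83.3% and 60.4%, and all protein-coding genes at 44.9% and 27.4%.

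The base composition of the promoters was set beside these counts. The median GC content of the 300-base promoters was 61.0% for NDUF genes and 63.7% for all protein-coding genes. Where it was at least 55%, a summit was present at 31 of 39 NDUF genes (79.5%), against 53.5% of all genes in that range. Where it was under 55%, a summit was present at all 9 NDUF genes, against 19.2% of all genes. The NDUF share was higher on both sides of this limit, but GC content was not matched within the ranges. At or above the limit its median was 62.7% for NDUF genes and 67.0% for all genes. Under the limit it was 50.7% for NDUF genes and 47.0% for all genes. The part of base composition in the share was not tested.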

How the data were processed

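SOX9 ChIP and input DNA of HT29 cells were sequenced by the authors from 1 biological replicate as 50-nt single-end reads and aligned to hg19 with BWA, whose version is not given in the sources used here. Only unique alignments were kept, duplicates were removed and the input was downsampled to the ChIP alignment number. The methods name McCoy's medium, whereas the labels give DMEM. The authors called peaks with MACS at a p cut-off of 1e-07, and the deposited peak table of 17847 peaks gives a count of tags, a score (10 times the negative log10 p), a fold enrichment and an FDR in percent. The deposited signal maps give the number of tags, extended to 150 bp, per bin of 32 nt, with no other scaling.

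From there, GENCODE release 44 on hg19 gave the start sites of 20136 protein-coding symbols. The canonical TSS was that of the Ensembl canonical transcript, and for NDUFB6, which has none, of the longest coding transcript. Peak positions were start plus summit minus 1. Ratio intervals are exact (Clopper-Pearson) 95% intervals. Reads without molecular identifiers are not independent molecules. A gene was called past the fold at a ratio of at least 4 with a pseudocount of 1. Motifs were searched in hg19 on both strands. NDUF genes could be named, except 1 that is counted in all totals but not reported here by itself, with values for genes without a peak, the highest peaks, core subunits, genes near the limits and those with CCAAT, and others only as opposite-strand neighbours or as the strongest 2 of a list. The members and lists were chosen with earlier results of these data known. The procedures were tested on simulated data. Alternatives covered distance, start sites, thresholds, pseudocount, windows and motif spelling. Tools were Python 3.11.15, pysam 0.24.0, NumPy 2.4.6, matplotlib 3.10.9, SciPy 1.17.1 and pandas 2.3.3.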

Additional observations from a re-analysis of the deposited data

How the results depend on the processing

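Of 29 alternatives over 6 results, 20 stayed within 1.5 times or the spread and 9 did not. The number of NDUF genes with a summit was 24 when a fold enrichment of at least 10 was required (23.9% of all genes), and from 37 to 42 under the other choices. At a score of at least 100 NDUFS4, NDUFV2 and NDUFV3 lost their summit, and within 3 kb NDUFA4L2 and NDUFS6 gained one. The number of genes past the fold at the TSS was 9 at a limit of 8 times (8.34% of all genes) and 18 with a pseudocount of 3 (13.3%). It was from 20 to 42 under the others, where the share of all genes, when taken, ran from 16.8% to 57.0%. With at least 5 tags in both bins together the shares were closer, 61.7% of NDUF genes against 45.1% of all genes. The median of tags stayed between 60 and 64. CCAAT was in 5 of 45 peaks within 25 bp (11.1%, against 15.4% of all promoter peaks). It was in 26 over the whole interval, where the shares were closer (57.8%, against 61.5%). Motif 1 in place of CCAAT was in 4 (8.89%, against 14.8%). The ETS core was in 1 peak within 25 bp and in 11 over the whole interval, against 4.92% and 30.8% of all promoter peaks. The shorter CCGGAA was in 13 (28.9%, against 24.5%), so the NDUF share was then above that of all promoter peaks, whereas with CCGGAAG it was below. The local input level and the removal of genes outside complex I were added after seeing the data. No paired analysis was possible because each group had 1 library. Depth limits single start sites: a TSS bin held at most 58 SOX9 and 19 input tags.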
